A study of Mus musculus with 24 samples.

Results

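Slc17a6, Calb2, Irs4, AW551984, Dgkk, Glra3, Adcyap1 and Gpr101 are 8 of the 18669 mouse genes measured, and they were picked because each was higher in the R6/2 striatum than in the wild-type striatum at 12 weeks of age. They were chosen by their RPKM and fold change in that contrast, several of them with most of the signal in 1 library (R6/2 replicate 1), so the contrast is described here for these genes without a test. Tests were made in libraries the choice did not use, which are the striatum at 8 weeks and the cortex at both ages.

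Polyadenylated RNA was sequenced from flash-frozen brain pieces, cortex or striatum, taken at 8 or 12 weeks from wild-type or R6/2 animals of the strain C57Bl/6 / CBA, with 3 libraries in each of 8 groups and 24 in all. R6/2 animals carry exon 1 of human huntingtin with an expanded CAG repeat as a transgene and model Huntington's disease, a disorder in which the projection neurons of the striatum are hit early. The transgene itself was not analysed here. The labels name no drug and no second allele. They give neither the sex, nor whether a library is 1 mouse or a pool, nor how the striatum was cut out. The p-values below therefore measure only the spread between these libraries, which may be technical. The libraries held 7089261 to 47684796 counts in genes. They are called by group and replicate number (1 to 3).

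Several of these genes are known as genes of the thalamus or hypothalamus. Neurons of those regions release glutamate loaded by Slc17a6, and hypothalamic neurons make neuropeptides such as the Adcyap1 product and use insulin-type signals that Irs4 passes on. The striatum is built mostly of GABA-releasing projection neurons, borders the septum and the ventricle, lies close to the hypothalamus and thalamus, and is overlain by cortex. In RNA from a whole tissue piece, fewer cells of a type and less RNA per cell cannot be told apart.

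Irs4 (Entrez gene 16370), Dgkk (331374) and Gpr101 (245424) lie on chromosome X. Calb2 (12308) and Glra3 (110304) lie on chromosome 8, Slc17a6 (140919) on chromosome 7, AW551984 (244810) on chromosome 9 and Adcyap1 (11516) on chromosome 17. Windows of 300 bases, from 250 before to 50 after an annotated gene start, were taken from RefSeq (GRCm38.p6), which held 11 windows for 7 of the 8 genes. The 3 windows shown belong to the gene with the widest gap between the R6/2 libraries at 12 weeks (Irs4), to a gene with a profile much like it (AW551984), and to the gene most even across those libraries (Adcyap1). Capitals mark each match, on either strand, to GGGCGG (the core of the GC box), TGACG (the half-site of the cAMP response element) or TATAAA (the TATA box).
Irs4, chrX:141725168-141725467, minus strand: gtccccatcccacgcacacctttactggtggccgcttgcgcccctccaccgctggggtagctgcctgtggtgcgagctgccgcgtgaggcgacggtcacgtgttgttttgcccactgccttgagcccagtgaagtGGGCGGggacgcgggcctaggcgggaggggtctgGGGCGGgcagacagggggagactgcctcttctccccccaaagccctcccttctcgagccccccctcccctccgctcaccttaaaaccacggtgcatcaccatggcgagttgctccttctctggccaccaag
AW551984, chr9:39603603-39603902, minus strand: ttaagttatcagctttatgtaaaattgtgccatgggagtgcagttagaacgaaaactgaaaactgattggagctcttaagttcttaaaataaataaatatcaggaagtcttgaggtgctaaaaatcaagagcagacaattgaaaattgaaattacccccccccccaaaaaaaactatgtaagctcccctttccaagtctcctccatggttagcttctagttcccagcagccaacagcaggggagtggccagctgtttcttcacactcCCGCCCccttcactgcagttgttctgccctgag
Adcyap1, chr17:93198918-93199217, plus strand: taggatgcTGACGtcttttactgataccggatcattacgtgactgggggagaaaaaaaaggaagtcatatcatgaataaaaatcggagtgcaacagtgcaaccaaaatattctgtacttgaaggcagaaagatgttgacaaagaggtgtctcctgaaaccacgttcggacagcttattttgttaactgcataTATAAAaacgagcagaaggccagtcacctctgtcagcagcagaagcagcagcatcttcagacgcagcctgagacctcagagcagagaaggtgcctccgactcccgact
The Irs4 window was 67% G or C with 19 CG pairs and held GGGCGG, which 35.7% of all 32851 such windows hold. The AW551984 window was 43.3% G or C with 2 CG pairs and also held GGGCGG. The other windows of AW551984 held none of the 3 sequences, and neither did that of Dgkk, the gene nearest to Irs4 in profile. The Adcyap1 window was 45.7% G or C with 10 CG pairs and held TGACG, found in 20.8% of all windows, and TATAAA, found in 13.6%. None of the 3 sequences was found in a window of every one of the 7 genes.

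At 12 weeks all 8 genes were higher in each R6/2 striatal library than in each wild-type one, in RPKM (reads scaled to transcript length and library total, as deposited). Groups that did not overlap in this direction were seen for 16.8% of the 11587 genes tested, and 0.88% of those genes were called higher by edgeR's quasi-likelihood test. Fold changes below are log2 values of R6/2 over wild type from edgeR on the deposited counts, with their standard error and 3 libraries against 3, and they are a description of the choice.

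Slc17a6, the transporter that fills synaptic vesicles with glutamate, stood at 25.7, 16.4 and 5.81 RPKM in R6/2 replicates 1, 2 and 3. It stood at 1.10, 2.46 and 0.315 RPKM in the wild type, a log2 difference of 3.50 ± 0.69. The lowest R6/2 library was 2.37 times the highest wild-type library.

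Glra3, a subunit of the glycine receptor, an inhibitory chloride channel, was at 2.82, 2.50 and 1.25 RPKM in R6/2. It was at 0, 0.0925 and 0.143 RPKM in the wild type, where the 0 allows up to 0.0838 RPKM (3 counts, counting error only), and the log2 difference was 4.51 ± 0.92. R6/2 replicate 1 was 2.26 times replicate 3, and none overlapped with the wild type.

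Adcyap1, the precursor of the neuropeptide PACAP, was at 2.45, 3.77 and 2.43 RPKM in R6/2. It was at 0.800, 0 and 0.153 RPKM in the wild type, with a limit of 0.0545 RPKM for the 0, and the log2 difference was 3.04 ± 0.65. It was the one gene highest in R6/2 replicate 2, and its R6/2 libraries differed by a ratio of at most 1.55.

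Gpr101, an orphan receptor coupled to the stimulatory G protein, was at 19.8, 5.99 and 2.68 RPKM in R6/2 and at 1.12, 0.785 and 1.13 RPKM in the wild type. The wild-type libraries agreed closely, while R6/2 replicate 1 was 7.41 times replicate 3. The log2 difference was 3.16 ± 0.63.

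Irs4, an adaptor that docks on insulin and insulin-like growth factor receptors, was at 6.73, 0.590 and 0.391 RPKM in R6/2 and at 0.0728, 0.00556 and 0.0603 RPKM in the wild type. R6/2 replicate 1 was 11.4 times replicate 2 and 17.2 times replicate 3, the widest gap of the 8 genes. The log2 difference was 5.65 ± 1.28, and without R6/2 replicate 1 Irs4 no longer reached the mean of 0.5 RPKM asked of a gene before testing. Of the 36-base words of the Irs4 transcript, 5.56% also occur in Gm15295, so part of its reads could be shared.

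Dgkk, a kinase that turns the messenger diacylglycerol into phosphatidic acid, was at 9.13, 1.93 and 0.977 RPKM in R6/2. It was at 0.141, 0 and 0.216 RPKM in the wild type, with a limit of 0.0168 RPKM for the 0, and the log2 difference was 4.93 ± 0.95. R6/2 replicate 1 was 4.74 times replicate 2.

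AW551984 was at 32.8, 10.2 and 2.35 RPKM in R6/2 and at 0.395, 0.0481 and 0.544 RPKM in the wild type, a log2 difference of 5.42 ± 0.92. Calb2, which encodes the calcium-binding protein calretinin found in some interneurons, was at 37.9, 15.6 and 5.75 RPKM in R6/2 and at 1.94, 3.88 and 1.77 RPKM in the wild type, a log2 difference of 2.85 ± 0.68. Both were far higher in R6/2 replicate 1 than in replicate 3, by 14.0 times for AW551984 and by 6.59 times for Calb2.

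R6/2 replicate 1 was thus the highest of the 6 striatal libraries at 12 weeks for 7 of the 8 genes, and R6/2 replicate 3 was the lowest R6/2 library for all 8. The summed RPKM of the 8 genes was 137 in replicate 1, 57.0 in replicate 2 and 21.6 in replicate 3, against 4.34 to 7.27 RPKM in the wild type. Spread between the R6/2 libraries, as the SD of log2(RPKM + 0.5), was 1.77 for AW551984 and 1.67 for Irs4, and 0.242% and 0.294% of the genes at or above 0.5 RPKM in that group had one at least as large. For Glra3 the SD was 0.50 and for Adcyap1 it was 0.31, levels that 27.3% and 56.5% of genes reached.

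Leaving out R6/2 replicate 1 lowered the log2 difference of Calb2 from 2.85 to 1.88 and of Gpr101 from 3.16 to 1.94. It lowered that of Dgkk from 4.93 to 3.35 and of AW551984 from 5.42 to 4.03. Slc17a6 went from 3.50 to 2.93, Glra3 from 4.51 to 4.24 and Adcyap1 from 3.04 to 3.10. Other libraries moved these sizes as well. Without wild-type replicate 1, Adcyap1 went to 4.84 and Glra3 to 3.86, without wild-type replicate 2, Slc17a6 went to 4.56, and without wild-type replicate 3, Glra3 went to 5.36 and Dgkk to 5.67. Irs4 went to 6.24 without R6/2 replicate 3. That the lowest R6/2 library of each of the 8 lay above the highest wild-type library cannot change when a library is left out. It belongs to the contrast that chose the genes. After TMM scaling Calb2 was at 10.1 in R6/2 replicate 3 and at 9.66 in wild-type replicate 2.

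**Figure D1:**
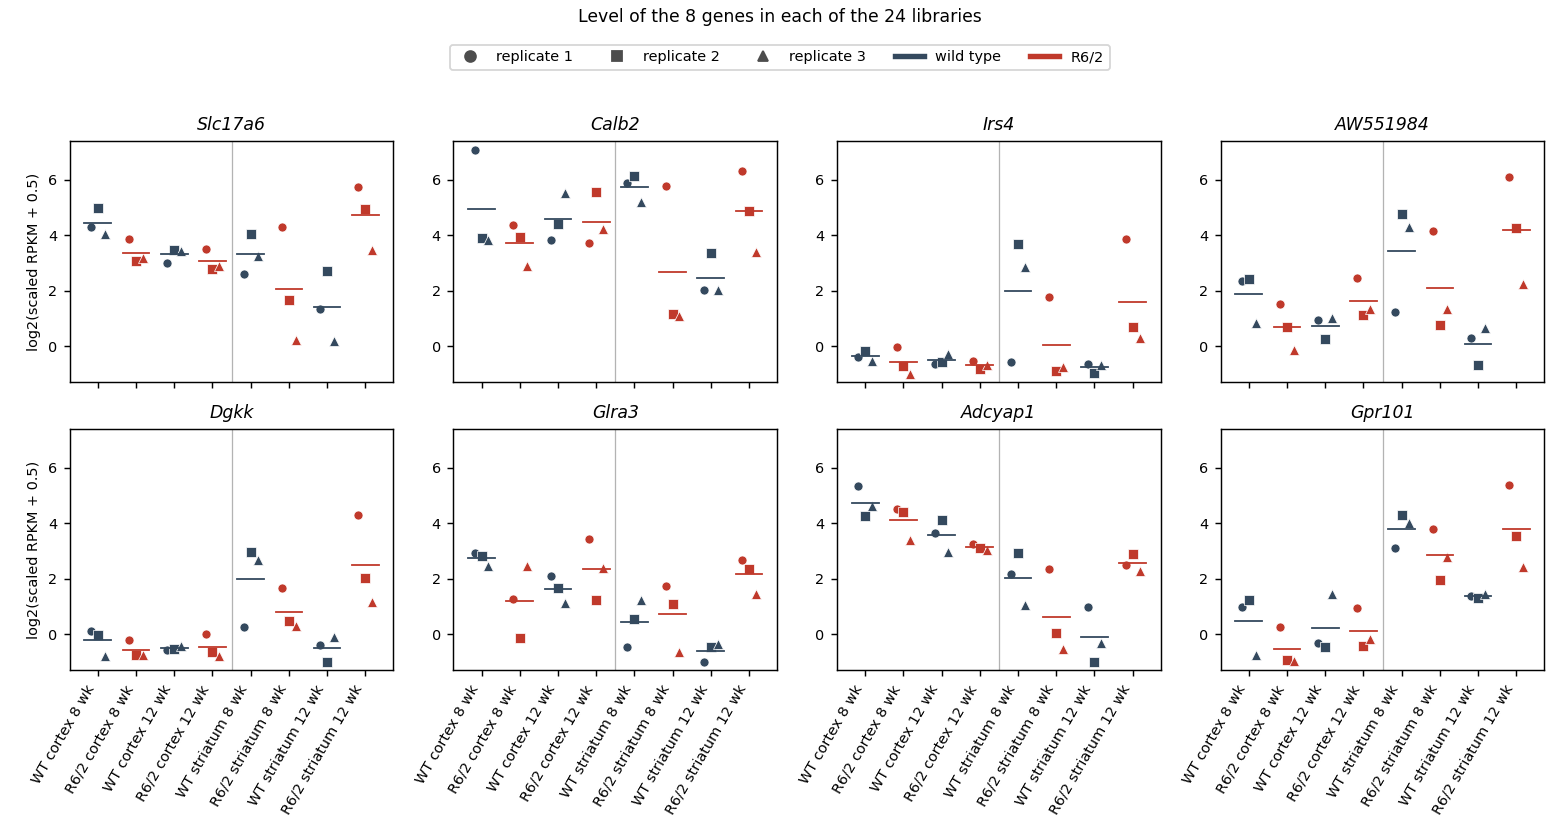
Each panel plots 1 gene, with log2(RPKM scaled by TMM over the 24 libraries + 0.5) on the vertical axis and the 8 groups on the horizontal axis; points are libraries (shape gives the replicate number), bars are group means of the log values, dark blue is wild type (WT) and red is R6/2. In the R6/2 striatum at 12 weeks the 3 points stand above the wild-type points in every panel, closest together for Adcyap1 and far apart for Irs4 and AW551984.

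At 8 weeks the genes that could be tested were not higher in the R6/2 striatum. Of the 8, 7 reached the level for testing (Glra3 did not), all 7 had a log2 difference below 0, from -2.80 for Irs4 to -0.49 for Slc17a6, and none passed (edgeR's quasi-likelihood test, adjusted p = 0.743 to 0.864). Of all 11142 genes tested 50.6% were below 0 and 0.00898% were called. None of the 7 had an unadjusted p under 0.05, and DESeq2 and limma called 0 of them.

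The R6/2 and wild-type ranges at 8 weeks overlapped for all 8 genes, while 5.21% of genes had R6/2 values wholly below the wild type. AW551984 was at 4.66, 0.370 and 0.603 RPKM in R6/2 and at 0.691, 7.63 and 5.17 RPKM in the wild type. Irs4 was at 0.790, 0.0126 and 0.0282 RPKM in R6/2 and at 0.0615, 3.54 and 1.83 RPKM in the wild type. For both, wild-type replicates 2 and 3 and R6/2 replicate 1 were high and the other 3 libraries were low.

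Dgkk was high in the same 3 libraries, with 0.724, 0.266 and 0.216 RPKM in R6/2 and 0.263, 2.10 and 1.59 RPKM in the wild type. Slc17a6 was highest in R6/2 replicate 1, with 5.22, 0.814 and 0.202 RPKM in R6/2 and 2.08, 4.63 and 2.45 RPKM in the wild type. Calb2 was at 14.8, 0.526 and 0.484 RPKM in R6/2 and at 21.7, 19.8 and 9.78 RPKM in the wild type. In Calb2, unlike Irs4, AW551984 and Dgkk, wild-type replicate 1 was high as well.

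Gpr101 was at 3.64, 1.04 and 1.94 RPKM in R6/2 and at 3.01, 5.50 and 4.24 RPKM in the wild type. Adcyap1 was at 1.22, 0.163 and 0.0569 RPKM in R6/2 and at 1.46, 2.03 and 0.421 RPKM in the wild type. Glra3 stayed under 1 RPKM in all 6 libraries, the highest being 0.770 RPKM in R6/2 replicate 1. Its mean was 0.433 RPKM in R6/2 and 0.283 RPKM in the wild type, which was not tested. After scaling between libraries by TMM, wild-type replicate 2 was the highest striatal library at 8 weeks for 6 of the 8 and R6/2 replicate 1 for Slc17a6 and Glra3.

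**Figure D2:**
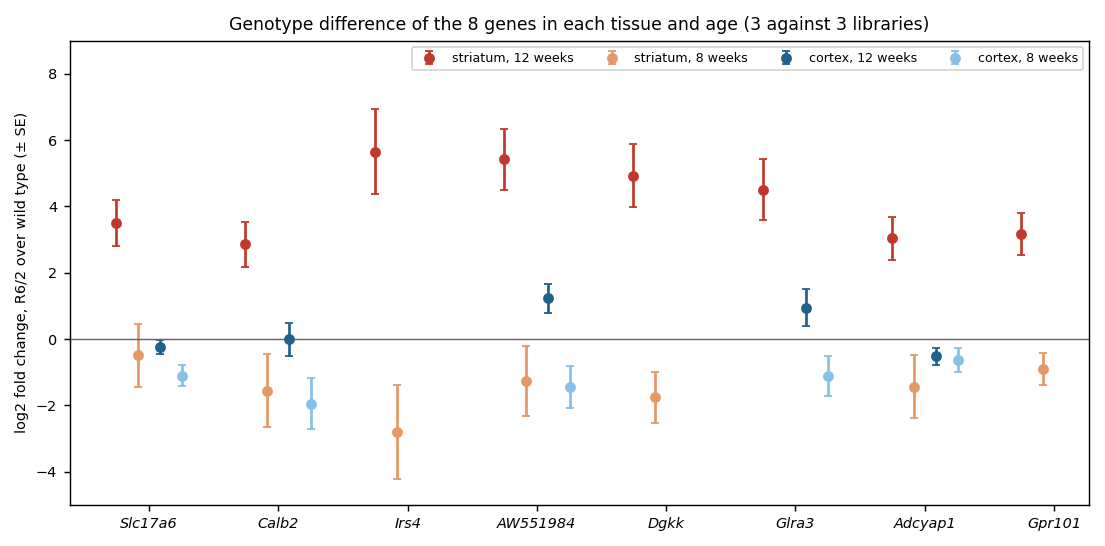
The log2 fold change of R6/2 over wild type (vertical axis, with SE as bars, from 3 against 3 libraries) is plotted for each gene (horizontal axis) in the 4 pairs of groups; a missing point is a gene under 0.5 RPKM on average. The striatum at 12 weeks, which chose the genes, lies at 2.85 or above throughout, and the striatum at 8 weeks lies below 0 for the 7 genes tested there.

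The 2 ages were also set side by side as levels, without a test, since the wild-type libraries at 12 weeks belong to the contrast that chose the genes. The share of reads that fell in genes was 25.7 to 28.3% in the R6/2 striatum at 8 weeks and 25.9 to 42.9% in the wild type, against 44.2 to 59.7% in the other groups, so RPKM was scaled by TMM factors over the 24 libraries for this step. On that scale the mean of wild-type striatum at 8 weeks exceeded that at 12 weeks by 3.52 times for Slc17a6, 9.75 times for Calb2 and 71.8 times for Irs4. It did so by 24.6 times for AW551984, 20.1 times for Dgkk and 6.84 times for Gpr101.

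Wild-type striatum at 12 weeks was the lowest of the 8 group means for Slc17a6, Calb2, Irs4, AW551984, Glra3 and Adcyap1. On the same scale Irs4 had a mean of 6.44 ± 6.13 (SD, n = 3) in wild-type striatum at 8 weeks and 5.26 ± 7.56 (SD, n = 3) in R6/2 striatum at 12 weeks. Calb2 had 54.6 ± 16.9 (SD, n = 3) and 39.3 ± 35.5 (SD, n = 3) in those groups. For Irs4, 2 of the 3 wild-type libraries at 8 weeks were above the lowest R6/2 library at 12 weeks, and for Calb2 all 3 were. Age and whatever else separates the 2 sets of libraries cannot be told apart.

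In which tissue the genes were higher was tested in the wild-type libraries at 8 weeks only, striatum against cortex. All 8 were tested and 3 passed, beside 4.11% of the 11479 genes (2.18% higher in the striatum and 1.93% lower). At an unadjusted p under 0.05 there were 7 of the 8, DESeq2 called 6 and limma called 4. DESeq2 and limma also called more of all genes than edgeR did, with the counts given in the last section. The share of all genes at an unadjusted p under 0.05 was not set beside the 7. Gpr101 was higher in the striatum, with a log2 difference of 3.81 ± 0.81 (edgeR, adjusted p = 0.0373) and 0.674, 0.801 and 0.0539 RPKM in the cortex. Glra3 was lower in the striatum, by -2.60 ± 0.55 (edgeR, adjusted p = 0.0373), with 3.31, 2.85 and 2.87 RPKM in the cortex. Adcyap1 was lower too, by -2.68 ± 0.51 (edgeR, adjusted p = 0.0266), with 18.7, 7.99 and 13.8 RPKM in the cortex. The calls of all 3 rested on few libraries: leaving out wild-type cortex replicate 1 ended each, with adjusted p = 0.146, 0.130 and 0.0966.

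The other 5 did not pass. Irs4 had a log2 difference of 4.67 (edgeR, adjusted p = 0.0577) and 0.123, 0.167 and 0.106 RPKM in the cortex, and Dgkk one of 3.81 (edgeR, adjusted p = 0.0561). AW551984 had 2.23 (edgeR, adjusted p = 0.203), Slc17a6 had -1.07 (edgeR, adjusted p = 0.216) and Calb2 had 0.04 (edgeR, adjusted p = 0.990). Without wild-type striatum replicate 1, Irs4, Dgkk and AW551984 passed as well, with adjusted p = 0.000254, 0.00302 and 0.0114. Scaling to the authors' library totals moved the median of all genes by -0.68, and with it the split of called genes from 250 higher and 222 lower to 200 and 1618. On either scale Gpr101, Irs4, Dgkk and AW551984 lay above 0 and Slc17a6, Glra3 and Adcyap1 below 0, while Calb2 turned to -0.58.

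In the cortex at 12 weeks 5 of the 8 genes were tested, since Irs4, Dgkk and Gpr101 were under 0.5 RPKM on average, and none passed beside 4.56% of the 11769 genes. The largest difference was that of AW551984, at 2.63, 0.968 and 1.13 RPKM in R6/2 and 0.735, 0.311 and 0.775 RPKM in the wild type. It was 1.22 ± 0.43 on the log2 scale (edgeR, adjusted p = 0.151). Of the 8, only AW551984 had cortical groups that did not overlap at 12 weeks. Groups that did not overlap in this direction were seen for 20.2% of genes. DESeq2 called AW551984, with adjusted p = 0.0279. Glra3 was at 0.95, Slc17a6 at -0.24, Adcyap1 at -0.52 and Calb2 at -0.01, with adjusted p (edgeR) from 0.308 to 0.996.

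Calb2 shows how far single libraries stood apart in the cortex. It was at 6.68, 26.9 and 10.1 RPKM in R6/2 cortex and at 7.20, 9.38 and 23.5 RPKM in wild-type cortex at 12 weeks. At 8 weeks it was at 63.0 RPKM in wild-type cortex replicate 1, against 6.17 and 7.84 RPKM in the other wild-type libraries and 4.44 to 10.1 RPKM in R6/2. The ranges of the 2 genotypes overlapped at both ages.

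In the cortex at 8 weeks the same 5 genes were tested and all were below 0 (as were 48.3% of all genes), from -1.95 for Calb2 to -0.64 for Adcyap1, with none passed (edgeR, adjusted p = 0.131 to 0.274) beside 0% of the 11663 genes. At an unadjusted p under 0.05 there were 3 of the 5 (Slc17a6, Calb2 and AW551984) and 2909 of all genes. DESeq2 called 1 of the 5 (Slc17a6, -1.17, adjusted p = 0.0228) and 1073 genes in all, and limma called 0. Leaving out wild-type cortex replicate 3 took the edgeR calls from 0 to 2854 genes, Slc17a6, Calb2 and AW551984 among them. Slc17a6 was at 7.08, 4.26 and 5.21 RPKM in R6/2 cortex and at 8.94, 13.4 and 9.33 RPKM in the wild type, 1 of 8 genes whose R6/2 values lay wholly below, as for 9.41% of genes.

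Whether the genotype difference at 8 weeks depended on the tissue was tested with an interaction term over 12 libraries. Of the 7 genes tested none passed (edgeR, adjusted p = 0.944 to 0.990) beside 0% of the 11514 genes, with 0 of the 7 and 417 of all genes at an unadjusted p under 0.05. DESeq2 and limma also called 0.

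The marker lists for neighbouring tissues were read library by library beside the 8 genes, as counts and values, and their part in the result was not tested. Of the thalamus list 11 of 14 genes were tested at 12 weeks in the striatum and 0 passed (edgeR), with 4 at an unadjusted p under 0.05, 2 called by DESeq2 and 0 by limma, and a median log2 difference of 0.27 beside 0.01 over all genes. Of the 11, 7 lay above 0 and 4 below, from -1.87 to 1.85. The summed RPKM of the list was 47.3 to 56.1 in R6/2 and 34.8 to 47.7 in the wild type. After TMM scaling the sum was 85.1 to 117 in R6/2, of which Adarb1 alone gave 35.6 to 39.0. In the wild type it was 73.9 to 88.4, of which Adarb1 gave 26.8 to 37.1. Tcf7l2, a transcription factor of thalamic neurons, was at 11.9, 3.88 and 1.67 RPKM in R6/2 and 1.27 to 2.81 RPKM in the wild type. Gbx2 stayed under 1 RPKM in all 6 libraries, with 61, 41 and 32 counts in R6/2 and 4, 0 and 36 in the wild type. Shox2 was at 0 in the wild type and in R6/2 replicates 1 and 3. Ntng1, Slitrk6 and Vav3, also picked after their values were seen, were higher in R6/2. Ntng1 was at 6.87, 5.28 and 5.31 after TMM scaling in R6/2 and at 2.16, 3.10 and 3.91 in the wild type. Slitrk6 had 605, 266 and 493 counts in R6/2 and 123, 56 and 112 in the wild type. Vav3 had 404, 387 and 1204 counts in R6/2 and 142, 173 and 316 in the wild type. Ramp3 was instead lower in R6/2, at 2.20, 1.43 and 2.96 after TMM scaling against 6.84, 13.4 and 6.01 in the wild type. Prkcd overlapped, at 2.93, 5.82 and 2.81 in R6/2 and 5.40, 2.80 and 3.94 in the wild type on that scale.

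Of the hypothalamic lists, 3 genes picked after their values were seen (Arhgap36, Calcr and Gal) were, like most of the 8 genes, highest in R6/2 replicate 1. Other genes of these lists were not. Pomc was at 2.57, 2.60 and 13.8 after TMM scaling in R6/2 and at 5.13, 0 and 3.19 in the wild type. Hdc had 3, 38 and 45 counts in R6/2 and 18, 30 and 69 in the wild type. Of the 15 regulators and receptors in the files, 4 were tested and 1 passed, Arhgap36, at 12.3, 3.25 and 0.173 RPKM in R6/2 and 0.0267 to 0.166 RPKM in the wild type. Its log2 difference was 5.49 ± 1.36 (edgeR, adjusted p = 0.0431), and leaving out R6/2 replicate 1, R6/2 replicate 2 or any wild-type library ended the call. Calcr, the calcitonin receptor, was at 5.21, 0.998 and 0.00432 RPKM in R6/2 and at most 0.112 RPKM in the wild type (log2 difference 4.48, edgeR, adjusted p = 0.135). Ecel1, also tested, was at 7.22, 4.83 and 3.12 RPKM in R6/2 and 5.63 to 8.60 RPKM in the wild type. The summed RPKM of this list was 27.2, 11.3 and 3.98 in R6/2 and 6.45 to 10.5 in the wild type.

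Sim1, a transcription factor of the hypothalamus, was at 0.0941, 0.474 and 0 RPKM in R6/2 (20, 115 and 0 counts) and at 0 in the 3 wild-type libraries. Nkx2-1, Rax, Nr5a1 and Nhlh2 had at most 8 counts in any of the 24 libraries, so their 0 counts in the R6/2 libraries at 12 weeks set these libraries apart from no others. Of the 15 peptide genes 4 were tested and 0 passed (edgeR, with 0 at an unadjusted p under 0.05 and 0 by DESeq2 and limma). Gal, the galanin gene, was at 5.15, 0.416 and 0 RPKM in R6/2 and at 0, 0 and 0.991 RPKM in the wild type, while Hcrt, Avp and Oxt stayed at or under 0.0902 RPKM in R6/2 at 12 weeks.

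At 8 weeks 0 of 6 hypothalamic peptide genes and 0 of 4 regulators passed (edgeR), with 5 and 2 at an unadjusted p under 0.05, 1 and 0 by DESeq2 and 0 by limma. The 3 genes that follow were picked after their values were seen. Oxt, the oxytocin gene, was at 0, 35.3 and 8.46 RPKM in wild-type replicates 1, 2 and 3 and at most 0.363 RPKM in R6/2. Gal was at 0, 5.86 and 3.48 RPKM in the wild type and Arhgap36 at 0.406, 4.61 and 2.96 RPKM. Wild-type replicates 2 and 3, in which Oxt, Gal and Arhgap36 were highest, were also those highest for Irs4, AW551984 and Dgkk. Agrp, another peptide gene, was instead highest in R6/2 replicate 2, with 22 counts against at most 1 in the other striatal libraries at 8 weeks. R6/2 replicate 1, high for Calb2 and Slc17a6, had Arhgap36 at 1.24 RPKM and Gal at 0.205 RPKM. Ttr, the transthyretin gene of the choroid plexus, was at 53.1, 287 and 1386 RPKM in the wild type and at 12.4, 454 and 25.4 RPKM in R6/2, so it was high in R6/2 replicate 2, where 7 of the 8 genes (all but Glra3) were among the lowest 3 libraries after scaling.

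Septum genes, taken as a sum, were highest in the same R6/2 library at 12 weeks. Their summed RPKM was 90.0, 34.1 and 18.6 in R6/2 and 11.003 to 22.2 in the wild type, with 5 of the 5 tested above 0, a median log2 difference of 0.90 and 0 called (edgeR, with 1 at an unadjusted p under 0.05 and 0 by DESeq2 and limma). Nts, the neurotensin gene, was at 68.1, 21.5 and 13.8 RPKM in R6/2, and Zic1, a transcription factor of the septum, at 12.99, 4.82 and 1.03 RPKM. Nts thus made up most of the sum in replicate 1. After TMM scaling it was at 24.9 in R6/2 replicate 3 and at 8.80, 28.3 and 28.4 in the wild type. Zic1 had 1286, 545 and 268 counts in R6/2 and 270, 236 and 537 in the wild type. Crhr2 was instead lowest of the R6/2 libraries in replicate 1, at 0.124, 0.850 and 0.416 after TMM scaling. Slc17a7, the vesicular glutamate transporter of the cortex, was lowest in R6/2 replicate 1. It was at 0.248, 20.1 and 31.3 RPKM in R6/2 and 44.1, 13.6 and 4.51 RPKM in the wild type. At 8 weeks it was instead highest in R6/2 replicate 1, the R6/2 library highest for the 8 genes, at 16.9, 1.81 and 3.61 RPKM in R6/2 and 8.01, 0.196 and 0.452 RPKM in the wild type. Of the cortical glutamatergic list 0 of 9 passed at 12 weeks (edgeR, with 1 at an unadjusted p under 0.05 and 0 by DESeq2 and limma) and 0 of 7 at 8 weeks (0 by each of these).

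Genes of the striatal projection neurons were lower in R6/2 at 12 weeks, where 12 of the 13 tested fell (edgeR), beside 2.43% of all genes. Without R6/2 replicate 1, 9 fell, and without R6/2 replicate 2, 6 fell, while limma called 2. Their summed RPKM was 749, 853 and 1535 in R6/2 replicates 1, 2 and 3 and 2807 to 5750 in the wild type, the reverse of the order of the 8 genes. At 8 weeks 0 of the 13 passed (edgeR, with 6 at an unadjusted p under 0.05, 2 by DESeq2 and 0 by limma), and the sum was 421 in R6/2 replicate 1, the R6/2 library in which the 8 genes were highest, and 1161 and 1143 in the others. In the wild type at 8 weeks the sum was 1477 to 2884, above each R6/2 library. Yet wild-type replicate 2 was the highest striatal library at that age for 6 of the 8 genes after TMM scaling, so the reverse order did not hold across genotypes. As a check of the tissue labels, 11 of these 13 genes were higher in wild-type striatum than in wild-type cortex at 8 weeks (edgeR), and 2 of 9 cortical genes were lower (5 by DESeq2 and 9 by limma). Of the other lists at 12 weeks in the striatum, 1 of 5 astrocyte genes fell (edgeR), and 0 passed of 6 basal forebrain, 2 monoamine, 2 choroid plexus, 4 oligodendrocyte and 5 microglia genes (edgeR), with 1, 0, 0, 3 and 0 at an unadjusted p under 0.05, 1, 0, 0, 1 and 0 by DESeq2 and 0 by limma.

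**Figure D3:**
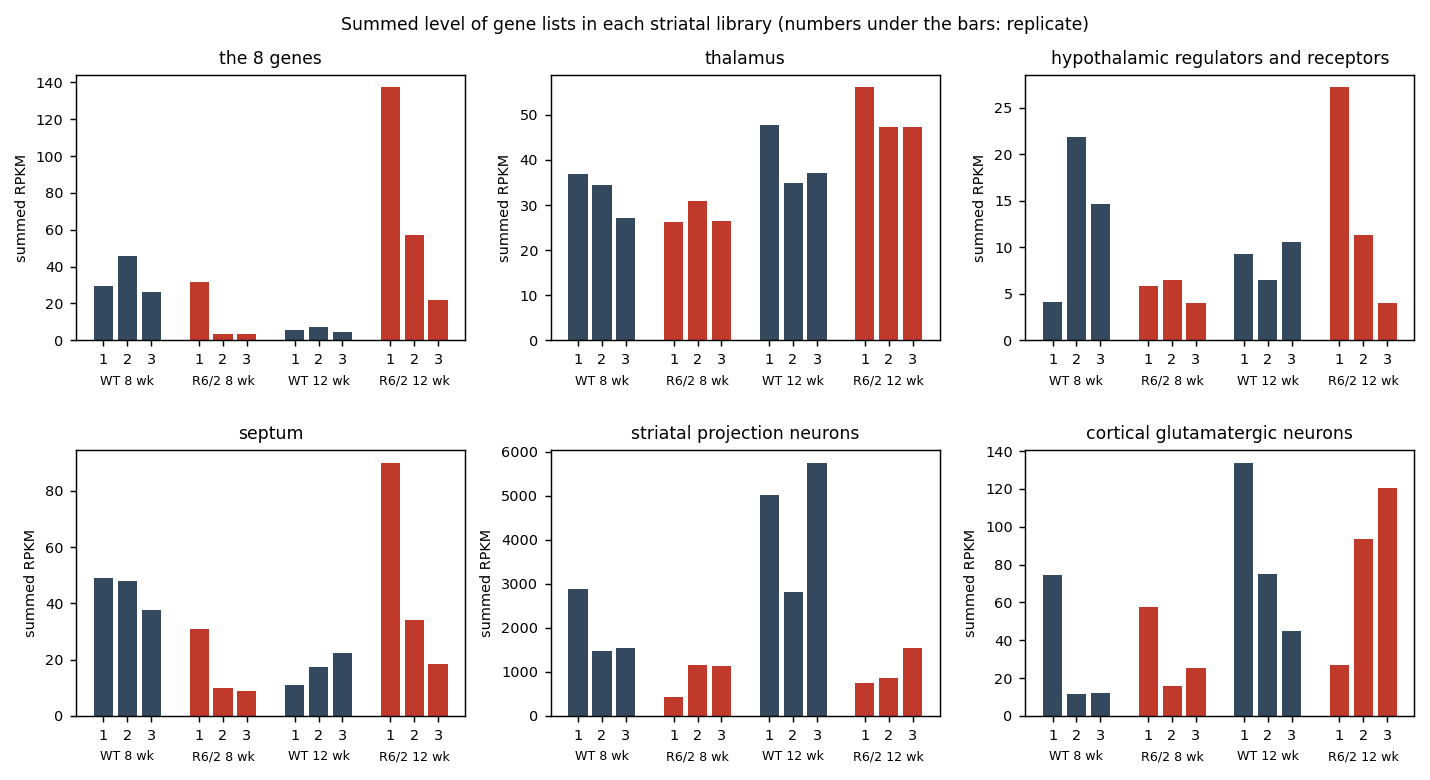
Bars give the summed RPKM (vertical axis, from 0) of the 8 genes and of 5 marker lists in each of the 12 striatal libraries (horizontal axis), dark blue for wild type (WT) and red for R6/2. The 8 genes, the hypothalamic regulators and the septum genes have their tallest bar in R6/2 replicate 1 at 12 weeks (137, 27.2 and 90.0), and the thalamus bars at that age stay within 34.8 to 56.1. The bars are not scaled by TMM, so heights at the 2 ages are not comparable. After that scaling the hypothalamic regulators reached 76.3 in wild-type striatum at 8 weeks and 56.5 in R6/2 striatum at 12 weeks.

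Relatives of the 8 genes mostly did not pass at 12 weeks in the striatum. Slc17a7 and Slc17a8, the other vesicular glutamate transporters, had log2 differences of -0.39 and -0.63, and 0 of the 2 passed (edgeR, with 0 at an unadjusted p under 0.05 and 0 by DESeq2 and limma). Of the insulin and insulin-like growth factor genes 5 were tested (Irs1, Irs2, Insr, Igf1r and the ligand gene Igf2) and 0 passed by any of the 3 tools or at an unadjusted p under 0.05, and the same was found for the 3 other EF-hand calcium binders. Of the 8 other diacylglycerol kinases 1 passed, with 6 at an unadjusted p under 0.05, 3 called by DESeq2 and 0 by limma. It was Dgkb, which fell by 1.46 (edgeR, adjusted p = 0.0251), a call that held when wild-type replicate 1 was left out and ended without any of the other 5 libraries. Of the 4 glycine receptor and transport genes 1 passed: Glra2, another alpha subunit, rose by 1.78 ± 0.32 (edgeR, adjusted p = 0.0142), with 19.2, 12.6 and 11.8 RPKM in R6/2 and 2.93 to 5.16 RPKM in the wild type. Leaving out R6/2 replicate 2 or wild-type replicate 3 ended that call, and leaving out R6/2 replicate 1 did not.

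Adcyap1r1, the PACAP receptor, was at 16.97 to 25.7 RPKM in R6/2 and 17.1 to 22.7 RPKM in the wild type at 12 weeks, a log2 difference of 0.06 (edgeR, adjusted p = 0.947). The 2 groups overlapped, unlike those of Adcyap1. Gpr6, an orphan receptor that like Gpr101 couples to the stimulatory G protein, fell by 2.52 (edgeR, adjusted p = 0.0142), and that call ended without R6/2 replicate 1 or without R6/2 replicate 2. Of Adcyap1r1, the VIP receptor gene Vipr1 and the peptide gene Vip 0 of 3 passed (edgeR, with 1 at an unadjusted p under 0.05 and 0 by DESeq2 and limma).

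Likeness among the 8 genes was measured over all 24 libraries as the root mean square difference between centred log2(RPKM + 0.5) profiles, a description in which all genes share libraries and depth. Irs4 and Dgkk were the closest pair, at 0.35, followed by AW551984 and Dgkk at 0.61 and Dgkk and Gpr101 at 0.64. Adcyap1 and Gpr101 were the farthest, at 2.46. Irs4, Dgkk, AW551984 and Gpr101 lay within 0.88 of each other. In every cortical library each of these 4 was at or under 2.63 RPKM. Slc17a6, Glra3 and Adcyap1 lay within 1.13 of each other, while the nearest of the former 4 to any of them was AW551984 to Slc17a6, at 1.18. Calb2 was nearest to Slc17a6, at 1.05.

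**Figure D4:**
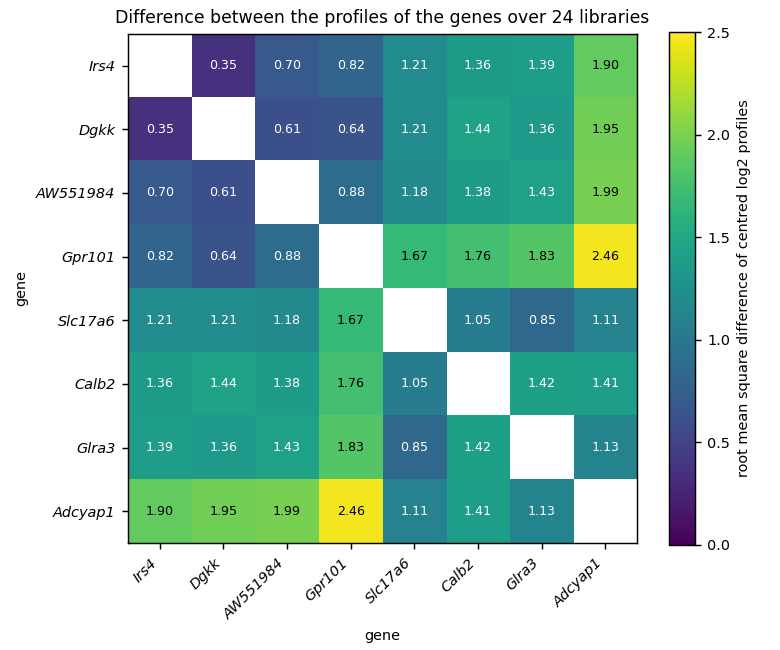
Rows and columns are the 8 genes, and each cell gives the root mean square difference of 2 genes' centred log2 profiles over the 24 libraries (colour scale, log2 units, dark for alike). The darkest block holds Irs4, Dgkk, AW551984 and Gpr101, with 0.35 for Irs4 and Dgkk, and the lightest cell is Adcyap1 and Gpr101 at 2.46.

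Outside the 8, the genes nearest to their mean profile among 11659 genes were Gpr165 (0.41) and Tmem255a (0.43), then Slc7a3, Pcdh8, Vwc2l, Tcerg1l, Nap1l5, Impact, Cd83 and Htr7 (up to 0.54), where the mean profile itself had a root mean square of 0.87 around its own mean. Gpr165 was at 7.75, 3.64 and 1.93 RPKM in the R6/2 striatum at 12 weeks and at 0.291 to 1.25 RPKM in the wild type. When the 6 striatal libraries at 12 weeks were left out, 3 of these 10 were still among the nearest 10. For single genes, Arhgap36 was the nearest outside the 8 to Irs4 (0.42), to Dgkk (0.41) and to AW551984 (0.50), and Gal was the next to Irs4 (0.49). Dlk1 was nearest to Gpr101 (0.58), Htr7 to Slc17a6 (0.63), Cyp4x1 to Glra3 (0.57), Car10 to Adcyap1 (0.60) and Tcerg1l to Calb2 (0.98).

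Depth set limits for the rarest of these genes. In the wild-type striatum at 12 weeks Irs4 had 15, 1 and 14 counts, Dgkk 29, 0 and 50, and Glra3 0, 3 and 6. The deposited length behind the RPKM of Glra3 was 1114 bases, against 6508 for its longest annotated transcript, so its RPKM is not comparable with that of the other genes.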

How the data were processed

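Counts per gene were deposited per library, and the submitters' processing notes name Bowtie, DESeq and the mouse build mm9. RPKM values were deposited too, in tables for each tissue and age, scaled by the authors to transcript length and library total. Poly-A selection and strand marking with dUTP are per the labels' protocols. For strand use in counting, and for the sequencer of each library, nothing is stated in the labels. The series' tables also hold 8 columns that belong to no sample here, which were not used.

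The 8 genes and the 19 other gene lists were chosen with earlier results of these data known. The lists name 147 genes, of which 11 were not analysed here. Each comparison kept genes with a mean of at least 0.5 RPKM over its libraries and was fitted on all of them with edgeR 4.0.16 (R 4.3.3, TMM scaling, quasi-likelihood test, Benjamini-Hochberg adjustment, threshold 0.05), after a test on simulated data. Only the libraries of the groups compared entered each fit. Alternatives were DESeq2 1.42.0, limma 3.58.1 on log2(RPKM + 0.5), other scalings and filters, a trend in GC content and length, the number in the titles as a block, and leaving out each library. The legacy form of the quasi-likelihood test was added after seeing the data. Named genes were all 8, up to 4 called genes of each list with the largest change, the 10 nearest profiles to the mean and the 3 nearest to each gene. Tcf7l2, Gbx2, Shox2, Zic1, Nts, Calcr, Gal, Sim1 and other uncalled markers were chosen after their values were seen. The result for 1 gene of the lists is not reported here.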

Additional observations from a re-analysis of the deposited data

Results flagged for a closer look

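The genotype contrast was compared between 2 ages of a tissue or 2 tissues of an age. Listed are those of the 8 genes whose R6/2 libraries all lay above the wild-type mean in one contrast and all below in the other. The share of all genes with this pattern was not computed, so the listing is only a description. Effects here are the mean, over the R6/2 libraries, of log2(scaled RPKM + 0.5) minus that of the wild-type mean, and none of the differences was tested. The striatum at 12 weeks chose the genes, so its high side is fixed by the choice.

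Irs4 had an effect of 2.36 in the striatum at 12 weeks and -2.75 at 8 weeks, a difference of 5.11, and one of -0.18 in the cortex at 12 weeks, a difference of 2.54. Dgkk had 2.94 in the striatum at 12 weeks and -1.56 at 8 weeks, a difference of 4.50. Gpr101 had 2.41 and -1.03 in those groups, a difference of 3.44. Adcyap1 had 2.43 in the striatum and -0.53 in the cortex at 12 weeks, a difference of 2.95. AW551984 was higher in the R6/2 cortex at 12 weeks by 0.88 and lower at 8 weeks by -1.34, a difference of 2.21, and neither contrast chose it.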

How the results depend on the processing

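In the striatum at 12 weeks 384 genes were called, against 765 with DESeq2, 215 with the authors' library totals, 10 with limma and 705 with a GC and length trend removed, and 42 to 469 when 1 library was left out. At 8 weeks in the striatum 1 was called (DESeq2 33, 0 to 1 with a library left out). In the cortex 537 were called at 12 weeks (DESeq2 952, limma 239, 205 to 858 with a library left out) and 0 at 8 weeks (DESeq2 1073, 0 to 2854). Between wild-type striatum and cortex 472 were called, against 1073 with DESeq2, 1818 with the authors' totals, 1711 with limma, 988 with the trend removed and 101 to 985 with a library left out. The interaction gave 0 in each of these settings.

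Calb2 changed sign in the cortex at 12 weeks with the authors' totals (0.12), without the RPKM filter (0.00372), with limma (0.0649) and between -0.81 and 0.65 with a library left out. Between wild-type tissues it did so with the authors' totals (-0.58), the trend removed (-0.19) and between -0.43 and 1.98. Slc17a6 in the striatum at 8 weeks ranged from -2.63 to 0.0713 with a library left out. In the interaction, limma gave -0.0790 for Slc17a6, -1.74 for Calb2, -0.29 for AW551984 and -0.24 for Gpr101. AW551984 gave -0.0385 with the authors' totals and -0.44 with the trend removed. With a library left out the interaction ran from -1.51 to 1.18 for Slc17a6, -3.05 to 0.96 for Calb2, -5.95 to 0.0637 for Irs4 and -1.83 to 1.00 for AW551984. The cause was not tested. In the striatum at 12 weeks none of the 8 changed sign in any setting that gave a value. That direction was fixed by the choice of the genes, so its constancy is no support for it. Sizes moved: Slc17a6 2.93 to 4.56, Calb2 1.88 to 3.43, Irs4 1.81 to 6.24, AW551984 3.65 to 5.98, Dgkk 2.41 to 5.67, Glra3 2.17 to 5.36, Adcyap1 2.15 to 4.84 and Gpr101 1.94 to 3.66.

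Same-numbered cortex and striatum libraries at 8 weeks had deviations correlated at -0.05 and 0.10 in R6/2 and at 0.35 and 0.49 in the wild type. Pairs with unlike numbers ran from -0.15 to 0.18 in R6/2 and from -0.55 to 0.46 in the wild type. For the wild type these values do not settle whether the numbers pair the libraries. The main fits treated all libraries as independent. With the number as a replicate block, 385 genes were called between wild-type tissues and 0 in the interaction, where Calb2 turned to -0.15 and Irs4 to 0.48. The 10 genes nearest to the mean profile shared 6 with a pseudocount of 0.1 and 3 without the striatum at 12 weeks. Few counts in the wild-type striatum at 12 weeks limit the fold changes of Irs4, Dgkk and Glra3.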
